A study of Homo sapiens with 4 samples.

Results

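Transcription factors that specify the stomach, intestine and other endoderm-derived organs, together with the LIM-homeodomain factor LHX2, were examined in HGC-27 gastric cancer cells with and without RUNX3. The genes were chosen by symbol and number 9 of the 25559 symbols in the count tables: CDX1, CDX2, HNF4A, GATA4, GATA6, FOXA1, FOXA2, NR5A2 and LHX2. CDX2 and LHX2 belong to the candidate partners that the study considers for RUNX3 at sites far from gene starts, and the comparison asks which of these factors the cells express and whether their RNA differs without RUNX3.

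HGC-27, written HGC27 in the sample labels, is an established line of poorly differentiated carcinoma from a lymph node metastasis of gastric cancer. Polyadenylated RNA was sequenced in 2 libraries of control cells (genotype wildtype) and 2 of RUNX3 KO cells (genotype RUNX3 knock-out). The KO had been made with lentiviral Cas9 and a guide against RUNX3, puromycin selection and single-cell cloning. Whether the controls were also transduced or cloned, and how many KO clones were sequenced, is not given in the sources used here, so that the effect of RUNX3 and the difference between a clone and its parent line cannot be told apart. Nothing states that replicates were separate cultures, and p-values then measure only the spread between these libraries, which may be technical.

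As background, the endoderm forms under FOXA and GATA factors, which can open closed chromatin at gut and liver genes. The caudal-type homeobox factors CDX1 and CDX2 then specify the intestine, and CDX2 is switched on in the stomach during intestinal metaplasia. HNF4A is a nuclear receptor that keeps epithelia of the stomach, intestine and liver differentiated, and NR5A2, also called LRH-1, is a nuclear receptor of pancreas, liver and intestinal crypts. LHX2 is known from the forebrain, eye, limb and hair follicle rather than from the gut, and works through the cofactor LDB1, which binds its LIM domains.

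Gene counts ranged from 11731401 to 12110876 per library. Control replicates differed by little more than counting noise (chi-square 1.22 per degree of freedom) and so did KO replicates (1.18). RUNX3 itself had 351 and 308 counts in control and 225 and 185 in KO libraries, or -0.70 on the log2 scale (SE 0.0961, edgeR adjusted p = 1.43e-09), which passed the threshold in every alternative except without KO replicate 2 (-0.55, adjusted p = 0.0649). A count over the whole gene does not read the edited site. After the KO, the paper reports absence of RUNX3 protein by immunoblot and a difference in RUNX3 mRNA by RT-qPCR. Changes were tested with the quasi-likelihood F test in edgeR and p-values adjusted after Benjamini and Hochberg over all tested genes. Levels are given as CPM, counts scaled to library size with TMM factors, and a library was taken to express a gene from 1 CPM.

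Of the 9 genes, 7 were expressed in both control libraries and 2, CDX1 and HNF4A, were not detected there. The same 7 were expressed in both RUNX3 KO libraries, and they are also the 7 that passed the filter on low counts and were tested. Between control and KO, CDX2 and LHX2 fell, GATA6 and NR5A2 rose, and GATA4, FOXA1 and FOXA2 did not pass the test. At an adjusted p under 0.05, 24.4% of all 12967 tested genes were lower and 24.5% higher, 48.9% in all, so a call is by itself common in this comparison, and 4 of 7 tested members is close to that share. The calls of CDX2 and LHX2 were lost with DESeq2 but kept with edgeR's exact test (adjusted p = 0.0204 and 0.00904) and with limma-voom (0.0242 and 0.01). A fold criterion like that of the study was 2 or more together with an unadjusted edgeR p of 0.05 or less. By it NR5A2 alone of the 9 genes was called. It was met by 2.11% of tested genes as higher (274) and by 4.01% as lower (520). The study reports more genes in both directions, after another scaling of the counts, and does not state whether its p was adjusted.

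**Figure D1:**
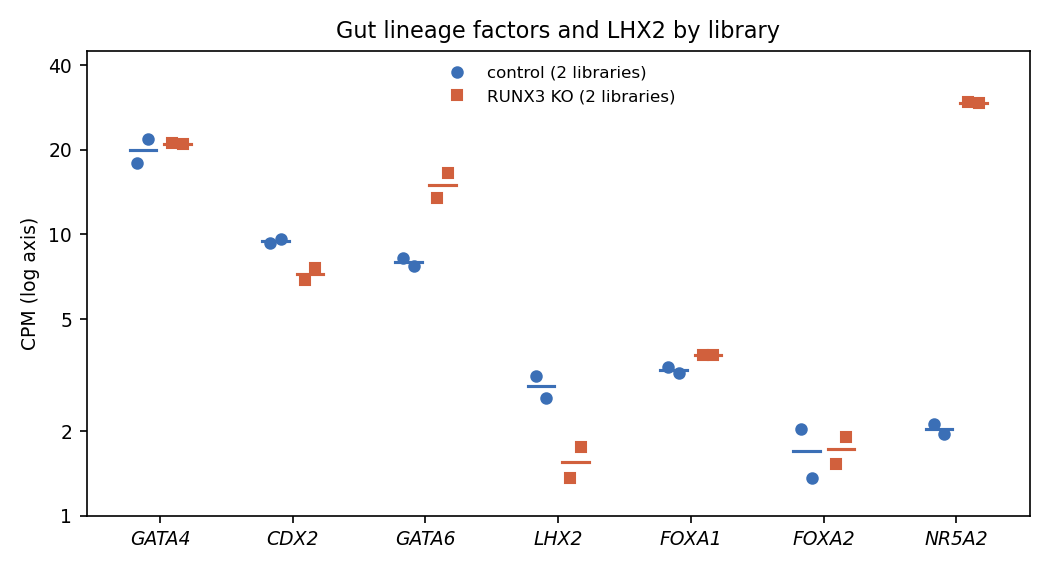
CPM on a log axis for the 7 tested genes, in order of their level per kb in control cells. Points are libraries and lines are means of 2 libraries. The KO libraries of NR5A2, at 29.6 and 29.3 CPM, stand far above its controls, at 2.12 and 1.95 CPM, whereas the groups of GATA4 and FOXA2 overlap. CDX1 and HNF4A, with 0 counts in control cells, are not drawn.

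The sequences upstream of NR5A2, CDX2 and LHX2, the gene that changed most and the candidate partners, are shown first, since they are where binding of these factors or of RUNX3 next to the gene could be read. RefSeq windows of 300 bases, 250 before and 50 after a transcription start, were given for 6 of the 9 genes (8 windows, build GRCh38.p14). They were matched exactly to GRCh37, the build the study calls hg19, and are printed 5′ to 3′ on the strand of the gene with bases of annotated exons left out. Capitals mark the letters AGATAA or their complement TTATCT, a form of the GATA motif. Other forms of it were not searched and stay in lower case. Both starts of NR5A2 are shown, the upstream one and the one within the gene, and counts per gene do not say which start was used. The stretches are chr1:199996588-199996741 for the upstream start of NR5A2 (plus strand), chr1:200011469-200011718 for its internal start (plus strand), chr13:28543453-28543702 for CDX2 (minus strand) and chr9:126773797-126774046 for LHX2 (plus strand), before a RefSeq start that lies inside the longer gene annotated by GENCODE.
NR5A2, upstream start: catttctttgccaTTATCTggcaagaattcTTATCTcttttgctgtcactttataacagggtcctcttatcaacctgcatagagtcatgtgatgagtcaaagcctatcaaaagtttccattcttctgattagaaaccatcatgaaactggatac
NR5A2, internal start: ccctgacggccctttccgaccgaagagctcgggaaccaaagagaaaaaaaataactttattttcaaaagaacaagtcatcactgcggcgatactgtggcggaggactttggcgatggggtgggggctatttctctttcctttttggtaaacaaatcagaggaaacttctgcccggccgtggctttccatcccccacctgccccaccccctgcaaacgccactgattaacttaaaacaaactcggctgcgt
CDX2: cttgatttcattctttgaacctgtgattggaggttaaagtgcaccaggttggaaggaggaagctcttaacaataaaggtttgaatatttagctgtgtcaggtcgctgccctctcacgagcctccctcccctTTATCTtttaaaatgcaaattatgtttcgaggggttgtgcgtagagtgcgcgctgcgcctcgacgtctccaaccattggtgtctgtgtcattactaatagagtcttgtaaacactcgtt
LHX2: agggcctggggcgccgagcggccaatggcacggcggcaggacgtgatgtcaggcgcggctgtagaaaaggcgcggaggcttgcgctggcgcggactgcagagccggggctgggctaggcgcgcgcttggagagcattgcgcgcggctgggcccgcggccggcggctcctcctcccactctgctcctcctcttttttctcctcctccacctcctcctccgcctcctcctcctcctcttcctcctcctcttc

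The letters TGTGGT or ACCACA, a form of the RUNX motif, were found in 0 of the 8 windows. Of all 34943 RefSeq windows of this length, 13.1% held them. Other forms of the RUNX motif were not searched. AGATAA was found once in the CDX2 window, 119 bases before the start (position -119), and at positions -237 and -220 of the upstream NR5A2 window, and also at position -26 of 1 of the windows of HNF4A, a gene that was not detected, whereas 10.4% of all windows held it. The upstream NR5A2 window also held TTTATG, a core of CDX motifs found in 10.6% of windows, at position -31, which lies in an annotated exon and is not printed. TAATTA, the core bound by LIM-homeodomain factors and many other homeodomain proteins, was found in 1 of the 8 windows, another window of HNF4A (position -159), and in 4.85% of all windows. The windows differed in composition, with 69% G and C for LHX2, 66.7% for GATA6, 50.3% for CDX2 and 36.7% for the upstream start of NR5A2. These are matches of letters in short windows, with no measure of binding.

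NR5A2 had the largest change of the 9 genes. It lies on chromosome 1 from 199996742 to 200146548 (hg19, plus strand). The control libraries held 25 and 23 counts, and the RUNX3 KO libraries 349 and 352. Both KO libraries were therefore high, both control libraries low, and the groups lay far apart. The level rose from 2.03 ± 0.119 to 29.4 ± 0.205 CPM (SD, n = 2 per group), a rise of 14.4-fold. The log2 fold change was 3.85 (SE 0.151, 95% interval 3.55 to 4.15), with an edgeR adjusted p of 1.22e-39. Among all genes that rose, NR5A2 ranked 19 by fold change and 15 by p. In control cells 8.65% of tested genes had a lower CPM than NR5A2, and in KO cells 49.1% did. With each library left out in turn, its log2 fold change stayed between 3.79 and 3.91, with adjusted p-values up to 0.0149.

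The rise of NR5A2 was not matched by genes next to it. The 40 nearest tested genes, 20 on each side, had a median log2 fold change of 0.02. Of these genes, 19 were lower in KO cells, and 0 rose as much. Among them TNNT2 lay at 2.23 and LHX9 at -0.98 on the log2 scale. Its relative NR5A1, the steroidogenic factor SF-1, had 1 count in all 4 libraries together, and NR0B2, which encodes the corepressor SHP that binds NR5A2, had none. The genes most like NR5A2 in level and change, by Euclidean distance of log2 CPM over the 4 libraries, were PLEKHH2 (distance 0.821), C4BPB (1.20) and CALCRL (1.33). PLEKHH2 went from 31 and 17 counts to 243 and 250.

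**Figure D2:**
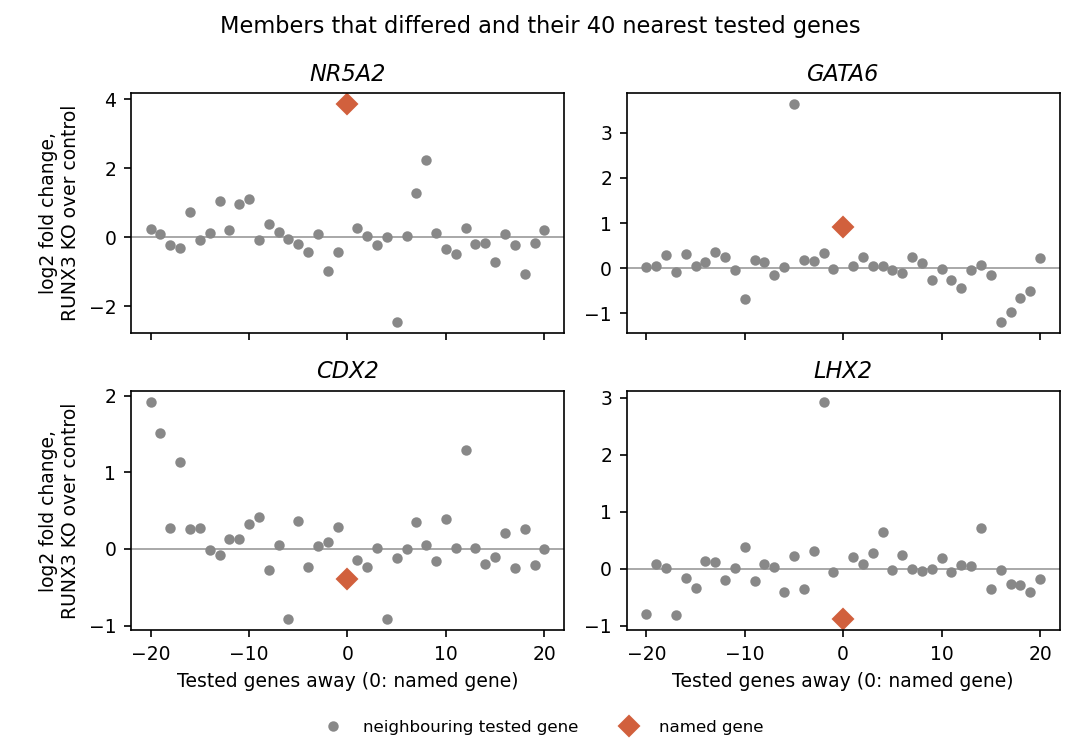
Log2 fold change, RUNX3 KO over control, of the 4 genes that differed (diamonds) and of the 40 tested genes nearest to each (circles), by the number of tested genes away. NR5A2 at 3.85 lies above all its neighbours, GATA6 at 0.91 above all except GREB1L, and LHX2 at -0.89 below all of them. CDX2 at -0.39 has 2 neighbours that fell more.

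GATA6, on chromosome 18 from 19749550 to 19782491 (plus strand), was the other gene that rose. It had 97 and 91 counts in control and 159 and 198 in RUNX3 KO libraries. The KO libraries were both above the controls but differed from each other more than the controls did. GATA6 went from 7.96 ± 0.357 to 15 ± 2.12 CPM (SD, n = 2 per group), that is by 0.91 in log2 units (SE 0.131, 95% interval 0.65 to 1.17, edgeR adjusted p = 5.65e-09). With each library left out it remained between 0.76 and 1.05 and kept its call. The neighbourhood of GATA6 had a median of 0.04, and 1 of its 40 neighbours rose as much, GREB1L, from 4 and 2 counts to 36 and 42. Annotated antisense transcripts, GATA6-AS1 among them, overlap GATA6 on the opposite strand. They are not among the symbols of the tables, and whether strand was used in counting is not given in the sources used here, so reads from either strand cannot be told apart.

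GATA4, its close relative in foregut endoderm and heart, had 213 and 257 counts in control and 249 and 252 in KO libraries. The control libraries enclosed both KO libraries, and the log2 fold change of 0.08 had a 95% interval from -0.12 to 0.27 (edgeR adjusted p = 0.533). Without control replicate 1 the value was -0.05. Per kb of its canonical transcript GATA4 was the most abundant of the 9 genes in control cells, at 5.28 and 6.37 CPM per kb. In KO cells NR5A2, at 5.95 and 5.89 CPM per kb, lay just below GATA4, at 6.17 and 6.13. In CPM, without division by length, NR5A2 lay above GATA4 there.

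Within the GATA family the endodermal members were accompanied by GATA2, a factor of blood and endothelial development. GATA2 had 7.36 and 7.04 CPM per kb in control and 7.09 and 8.06 in KO cells, so that GATA2 and GATA4 together made up most of the GATA RNA. GATA6 went from 14.4% and 13.1% of the summed per-kb level of the 6 GATA genes in control to 20.7% and 23.1% in KO libraries. GATA3 was low, with 22 to 35 counts per library, GATA1 had a single count in all, and GATA5 had none. Of the 6 tested GATA and FOG genes, 2 rose, where 24.5% of all tested genes did, GATA6 and ZFPM2, which encodes the GATA cofactor FOG2. None fell with edgeR or DESeq2, and 0 fell at an unadjusted p under 0.05 with either. ZFPM2 went from 30.7 ± 0.949 to 37.7 ± 2.24 CPM (SD, n = 2 per group), or 0.30 on the log2 scale (edgeR adjusted p = 0.000622), but lost its call with DESeq2 (adjusted p = 0.0565) and without KO replicate 2 (0.0978). The median of the 6 was 0.19 (0.08 without a filter), against -0.0021 for all tested genes.

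CDX2, on chromosome 13 from 28535055 to 28543452 (minus strand), was expressed in control cells and was lower in RUNX3 KO cells. The control libraries had 110 and 114 counts and the KO libraries 81 and 91, without overlap. The level went from 9.49 ± 0.242 to 7.22 ± 0.5 CPM (SD, n = 2 per group). The difference of -0.39 on the log2 scale (SE 0.148, 95% interval -0.69 to -0.10) passed in edgeR with an adjusted p of 0.0212. Among the 3158 genes called lower, CDX2 ranked 1689 by size of the fall. Of all tested genes, 15.6% had a lower log2 fold change than CDX2. The call was lost with DESeq2 (adjusted p = 0.248), without control replicate 2 (0.0910) and without KO replicate 1 (0.149) or 2 (0.0797), while the direction held. The 40 tested genes around CDX2 had a median of 0.04.

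CDX2 stood alone in its family. CDX1 had 0 counts in every library, which allows up to 0.256 CPM in each control library (3 counts, counting error only), and CDX4, GSX1 and GSX2 had 0 as well. PDX1, the ParaHox factor of pancreas and duodenum, whose gene lies beside CDX2, had 3 to 7 counts per library and was not tested. The genes most like CDX2 in level and change were CROCCP2 (distance 0.117), MOSPD1 (0.130) and IMMP2L (0.152).

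HNF4A had 0 counts in both control libraries and 0 and 1 in the KO libraries. HNF4G, the paralog of HNF4A in intestinal epithelium, was expressed, with 94 and 97 counts in control and 100 and 112 in KO libraries, a log2 fold change of 0.14 (95% interval -0.15 to 0.43, edgeR adjusted p = 0.461). ONECUT2 and ONECUT3 were expressed too, and of the 4 tested genes among HNF4 and ONECUT factors 0 passed with edgeR or DESeq2, where 48.9% of all tested genes passed with edgeR, and 0 had an unadjusted p under 0.05 with either. Their median was 0.05, and 0.07 to 0.10 with single libraries left out.

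FOXA1 and FOXA2, the pioneer factors of the group, were expressed at low levels. FOXA1 had 40 and 38 counts in control and 44 and 45 in RUNX3 KO libraries. The KO libraries were slightly higher, but the log2 fold change of 0.18 (95% interval -0.27 to 0.62, edgeR adjusted p = 0.543) did not pass. FOXA1, on chromosome 14 from 38058757 to 38065264 (minus strand), lay in a stretch where all 40 nearest tested genes were lower in KO cells, with a median of -0.31, and after that median was subtracted its value was 0.49 (edgeR adjusted p = 0.0664). FOXA2 had 24 and 16 counts in control and 18 and 23 in KO libraries, so the groups overlapped. Its log2 fold change of 0.02 had a 95% interval from -0.61 to 0.65, and at this depth a change of less than that could not be seen. FOXA3 had 0 and 2 counts in control and 0 in KO libraries.

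**Figure D3:**
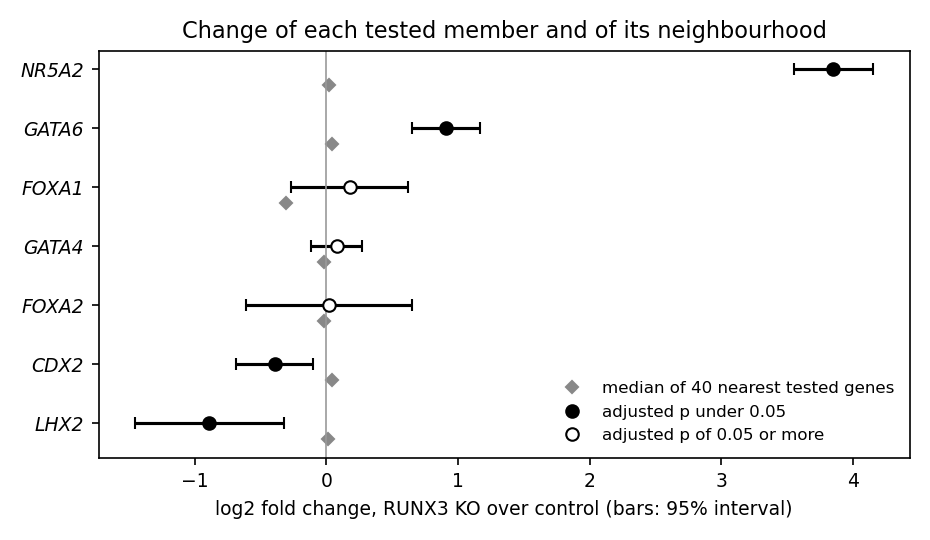
Log2 fold change, RUNX3 KO over control, of the 7 tested genes with 95% intervals of the edgeR fit. Filled points passed an adjusted p of 0.05, and grey diamonds are medians of the 40 nearest tested genes. NR5A2 lies at 3.85, and FOXA1 at 0.18 lies above a neighbourhood at -0.31.

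LHX2, on chromosome 9 from 126763949 to 126795580 (plus strand), had 37 and 31 counts in control and 16 and 21 in RUNX3 KO libraries. The groups did not overlap, but every library held few counts. The level went from 2.88 ± 0.359 to 1.55 ± 0.277 CPM (SD, n = 2 per group), which is -0.89 in log2 units (SE 0.285, 95% interval -1.45 to -0.32, edgeR adjusted p = 0.00679). None of its 40 nearest tested genes fell as much, and their median was 0.01. CRB2, which lies next to LHX2 but for 1 tested gene, rose by 2.93. The call of LHX2 was lost with DESeq2 (adjusted p = 0.172), without control replicate 1 (0.0927) and without KO replicate 1 (0.130) or 2 (0.0781), with values from -1.08 to -0.72 over the libraries left out. An antisense transcript, LHX2-AS1, overlaps LHX2 and is not among the symbols of the tables. The genes most like LHX2 were LOC100506191 (distance 0.173), ZNF785 (0.214) and USP2 (0.235).

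LHX2 was a minor part of the LIM homeobox RNA in these cells. LHX9, the gene of a closely related factor known from gonad, limb and brain development, had 2126 and 1958 counts in control and 995 and 1090 in KO libraries. Both KO libraries were far below both controls. LHX9 went from 173 ± 10.0 to 87.5 ± 4.50 CPM (SD, n = 2 per group), or -0.98 on the log2 scale (SE 0.0432, edgeR adjusted p = 4.24e-36), and kept its call in all 15 alternatives. Per kb of canonical transcript LHX9 lay at 22.9 and 21.1 CPM per kb in control cells, against 1.31 and 1.10 for LHX2. LHX9 made up 49.3% and 46.0% of the summed per-kb level of the 12 LIM homeobox genes in control and 33.6% and 33.3% in KO libraries, and LHX2 made up 2.82% and 2.39% in control and 1.77% and 2.1% in KO libraries.

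Of the 12 LIM homeobox genes, 9 were tested and 2 fell with edgeR, LHX2 and LHX9, near the 24.4% of all tested genes that were lower, whereas with DESeq2 LHX9 alone fell. None rose with edgeR or DESeq2, and 0 rose at an unadjusted p under 0.05 with either. The 9 genes had a median log2 fold change of -0.19 (-0.09 without KO replicate 1), against -0.0021 for all tested genes. LHX8, the next most abundant, had 282 and 352 counts in control and 302 and 314 in KO libraries, with the KO libraries inside the range of the controls. ISL1, LHX4, ISL2, LHX1, LHX6 and LHX3 lay below LHX8 and did not pass the test, and LHX5, LMX1A and LMX1B had 0 counts in every library.

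**Figure D4:**
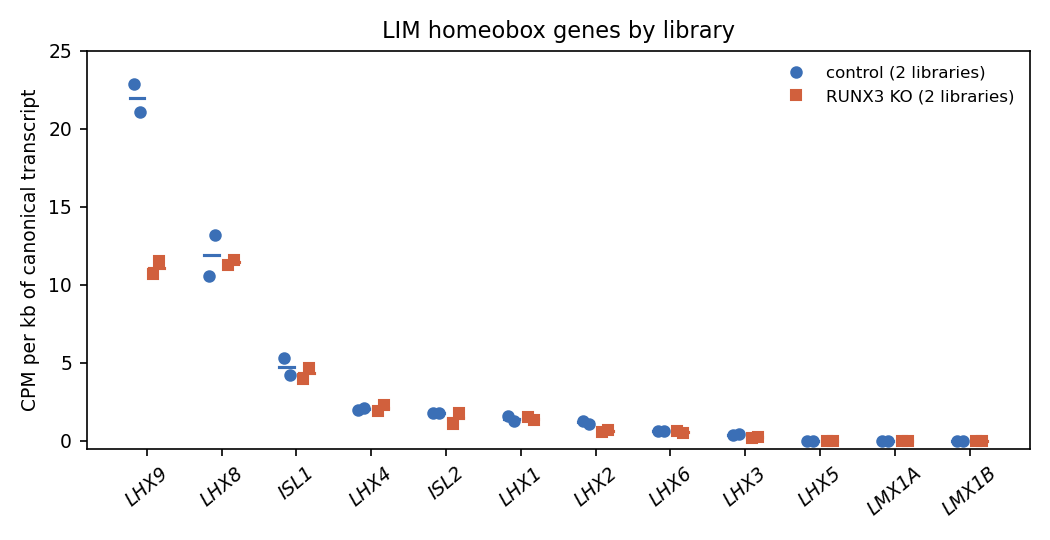
CPM per kb of canonical transcript of the 12 LIM homeobox genes in each library, ordered by the mean in control cells. Points are libraries and lines are means of 2 libraries. LHX9 falls from 22.9 and 21.1 to 10.7 and 11.5, and LHX2 lies at 1.31 and 1.10 in control cells, just below LHX1 and above LHX6.

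Of the 10 genes for LIM-domain cofactors and LIM-only proteins, 9 were expressed in control cells, at levels that differed widely between genes. LDB1 rose from 200 ± 3.89 to 235 ± 3.54 CPM (SD, n = 2 per group), or 0.23 on the log2 scale (edgeR adjusted p = 6.69e-09). SSBP3 and SSBP4, whose proteins bind LDB1, fell by 0.44 and 0.32 on the log2 scale, from 86.1 ± 0.933 to 63.4 ± 6.94 and from 90.3 ± 2.01 to 72.1 ± 5.65 CPM (SD, n = 2 per group). SSBP4 lies among genes with a median of -0.29, and its value was -0.04 (edgeR adjusted p = 0.584) after that median was subtracted. Of the 9 tested cofactors 3 fell, the third being LMO2, 1 rose, against 24.4% lower and 24.5% higher of all tested genes, and the median of -0.06 ranged from -0.14 to -0.02 over the libraries left out and was -0.16 without a filter. LMO2, from 40 and 27 counts to 17 and 15, lost its call with DESeq2 (adjusted p = 0.103), without control replicate 1 (-0.76, adjusted p = 0.116) and without KO replicate 1 (0.122) or 2 (0.172), and is named here after its values were seen.

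Of the other endoderm factors only 5 of 16 were tested. MNX1, a factor of pancreas and motor neurons, changed by -0.50 on the log2 scale. HHEX and KLF5, a factor of liver and foregut and a factor of intestinal crypts, changed by 0.39 and 0.15, KLF5 by 0.07 without control replicate 2 (adjusted p = 0.366), 0.10 without KO replicate 2 (0.441) and 0.09 after its neighbourhood median was subtracted (0.165). MNX1, HHEX and KLF5 passed with edgeR (adjusted p from 0.00708 to 0.0136), but lost their call with DESeq2 (adjusted p from 0.165 to 0.210) and without 1 or more single libraries. SOX2, SOX17, BARX1, ISX, EHF, ATOH1, SPDEF and FOXQ1 had at most 3 counts in every library.

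The expression of GATA4, GATA6, FOXA1, FOXA2 and CDX2 was not accompanied by gut differentiation genes. Of 22 intestinal differentiation genes, such as those for villin (VIL1), the mucin MUC2 and the cadherin CDH17, 21 had at most 3 counts in every library, 0 reached 1 CPM in both controls, and their summed level was 0.593 to 1.02 CPM in control and 0.333 to 0.593 CPM in KO libraries. Of 22 gastric genes 20 lay at that floor, including TFF1, MUC5AC and the pepsinogen gene PGC at 0, and MUC1 was the gene expressed, with 87 and 100 counts in control and 86 and 85 in KO libraries. Of 19 hepatic genes 17 lay at the floor, with ALB and TTR at 0. The list sums were 8.13 to 8.81 CPM in control and 7.15 to 7.29 CPM in KO libraries for the gastric genes, and 0.339 to 1.10 and 0.847 to 1.16 CPM for the hepatic genes.

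The labelled cell type, a gastric cancer line, was checked against 14 epithelial markers, of which 2 were expressed in both control libraries and 7 had at most 3 counts in every library. EPCAM had 1 count in each control and none in KO libraries, and KRT19 and GRHL2 had 0 throughout. The 14 markers summed to 5.17 to 5.59 CPM in control and 13 to 13.5 CPM in KO libraries. All 3 tested markers rose with edgeR, as 24.5% of all tested genes did, and 1 of them with DESeq2. They are KRT8, CDH1 and CLDN7, named after their values were seen. KRT8 had 19 and 11 counts in control and 72 and 81 in KO libraries, or 2.33 on the log2 scale (SE 0.251, edgeR adjusted p = 1.90e-13). CDH1 (0.77) and CLDN7 (0.75) lost their calls with DESeq2 (adjusted p = 0.273 and 0.335) and without several single libraries. With edgeR both also lost them without a filter (0.0642 and 0.191) and after subtraction of the neighbourhood median (0.0574 and 0.0619). CLDN7 lost its call with limma-voom (0.0652) and with edgeR after upper quartile scaling (0.0507) too. Mesenchymal markers summed to 7054 to 7137 CPM in control and 4072 to 4156 CPM in KO libraries, with 10 of 11 tested genes lower (24.4% of all tested genes), led by COL1A2 at 1973 and 2030 against 1 and 5 counts and by FN1 at 115 and 95 against 15 and 11. Leukocyte markers summed to at most 1.95 CPM and endothelial markers to at most 0.339 CPM, with CD3E, MS4A1, PECAM1 and CDH5 at 0. The part of this shift in the changes of NR5A2, GATA6, CDX2 and LHX2 was not tested, and in bulk RNA fewer cells of a type and less RNA per cell cannot be told apart.

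**Figure D5:**
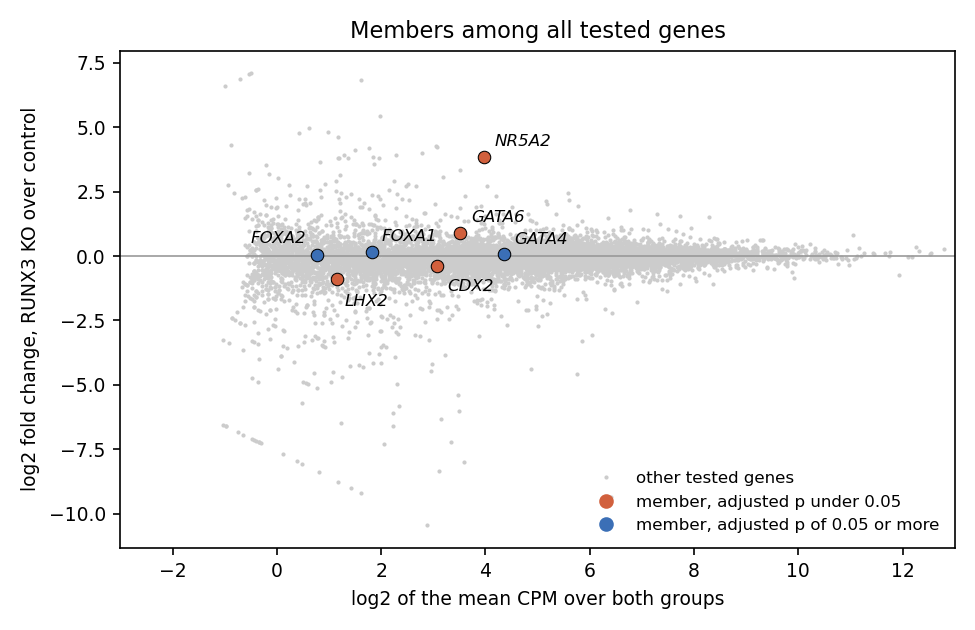
Log2 fold change, RUNX3 KO over control, against the log2 mean CPM for all 12967 tested genes (grey), with the 7 tested members in colour. NR5A2 at 3.85 lies outside the bulk of genes of its level, while CDX2 at -0.39 and LHX2 at -0.89 lie within it.

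In order of level per kb in control cells, the 7 expressed genes ranked GATA4, CDX2, GATA6, LHX2, FOXA1, FOXA2 and NR5A2. No neighbours in this order had overlapping ranges over the 2 control libraries, though 2 libraries bound a range only loosely and FOXA2, at 0.801 and 0.534 CPM per kb, and NR5A2, at 0.426 and 0.392, lay close. In RUNX3 KO cells NR5A2 moved from the last place to the second, at 5.92 ± 0.0413 CPM per kb against 6.15 ± 0.0280 for GATA4 (SD, n = 2 for each gene). These places depend on the canonical transcript lengths. In mean CPM NR5A2 lay above GATA4 in KO cells (29.4 against 21). In control cells mean CPM put NR5A2 above FOXA2 (2.03 against 1.69) and LHX2 below FOXA1 (2.88 against 3.3).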

How the data were processed

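RNA of 2 control and 2 RUNX3 KO libraries of HGC-27 cells was analysed from raw counts of reads per gene symbol, which the authors deposited without normalization. The paper names STAR, hg19, featureCounts and GENCODE, whereas the submitters' processing notes name HISAT2 2.1.0 and HTSeq, and the tables close with 5 rows in the form that htseq-count writes. These rows held 25.9% to 28.1% of all counts and were left out. Media and RNA kits also differ between paper and labels.

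Genes were kept by filterByExpr (minimum count 10, minimum total 15), scaled by TMM and compared without a replicate block by the quasi-likelihood test of edgeR 4.0.16 (R 4.3.3; prior count 0.125), with Benjamini-Hochberg adjustment over 12967 genes. SE is the log2 fold change over the square root of F. On counts simulated from these libraries, 176 of 195 tested genes changed 2-fold were recovered, with 15 false calls. The simulation changed 200 genes, far fewer than were called in the data. It gave every gene the common dispersion (biological coefficient of variation 1.45%), little more than counting noise. The recovery therefore does not measure power across separate cultures. A gene with at most 3 counts was taken as at the floor. An exact permutation test of 2 against 2 libraries cannot go below 0.333. Positions and canonical transcript lengths came from GENCODE on GRCh37, where 21482 symbols were placed.

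The members and lists were chosen with earlier results of these data known. A few genes of the lists are not reported here. Members are all named; of each list, with that exception, up to 2 called genes with the largest fall and 2 with the largest rise and a mean of at least 50 counts, unless stated; and the 3 genes nearest to each called member. Alternatives were other scalings, filters and tests (DESeq2 1.42.0, limma-voom of limma 3.58.1, edgeR's exact test), a replicate block, a prior count of 2, subtraction of the neighbourhood median and each library left out.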

Additional observations from a re-analysis of the deposited data

How the results depend on the processing

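NR5A2 and GATA6 kept their direction and call in all 15 alternatives, with NR5A2 between 3.75 and 3.91 and GATA6 between 0.76 and 1.05. GATA4, FOXA1 and FOXA2 passed in none, with GATA4 from -0.05 to 0.22 and FOXA2 from -0.24 to 0.34 over the libraries left out. With DESeq2, CDX2 (-0.39, adjusted p = 0.248, range over alternatives 0.0109 to 0.248) and LHX2 (-0.89, adjusted p = 0.172, range 0.00502 to 0.172) lost their calls, so that 0 members were called lower, and 0 at an unadjusted p under 0.05 (0.109 and 0.0667). With single libraries left out, CDX2 lay from -0.47 to -0.32 and LHX2 from -1.08 to -0.72, with 0 to 1 members lower and 2 to 2 higher. Without KO replicate 1 no member was lower and 0 had an unadjusted p under 0.05 with edgeR, and without KO replicate 2 no member was lower but 2 had one. At a fold change of 2, 0 members were lower and 1 was higher. The number of genes lower was 1863 with DESeq2 and 1378 to 2806 with libraries left out, and of genes higher 1829 and 1285 to 2745. Leaving out a library leaves its group with 1, which is assumed to vary like the other group. The cause of the other changes was not tested. The number of expressed members remained 7 at 0.5 CPM and by filterByExpr.

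Same-numbered libraries did not deviate together (correlation -0.0051 over 10869 genes). Replicates differed by little more than counting noise, so this cannot show whether same-numbered libraries were handled together. A replicate block gave 3143 lower and 3143 higher genes and changed no call of a member. Scaling moved the median of all genes by little, to -0.0228 at most. LHX2, FOXA1 and FOXA2 had under 50 counts per library, and smaller changes than their intervals could not be seen.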
